A study of Homo sapiens with 16 samples.

Results

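The members described here are the long intergenic non-coding RNA genes that carry a LINC number as their symbol and that were measured in IMR32 neuroblastoma cells with a mean raw read count of at least 10 over 16 libraries. Of 58787 genes in the count table, 2260 had a symbol made of LINC and digits only, and 104 of these reached the threshold. The other 2156 lay below it, and 1458 of them had no count in any library. Just inside the threshold were LINC03060 with a mean raw count of 10.2, LINC02757 with 10.3, and LINC01659 and LINC01799 with 10.4 each. Just outside were LINC01694 with 9.62, LINC01252 with 9.0, LINC01473 with 8.75 and LINC02883 with 8.62. The members were therefore chosen by their abundance over all libraries, and no test between groups of libraries was part of the choice. Of these libraries 12 are knockdowns and 4 are controls, so a gene that was higher on knockdown reached the threshold more easily. In 3 members every control held under 10 counts, and 2 of these were called in the mean of the siRNAs described below. Summed over the 4 controls, counts were 12 for LINC02334, 21 for LINC01821, 31 for LINC02983 and 35 for LINC00663, all called as higher. These control counts alone fall short of a mean of 10, so these members passed through the knockdown libraries. The share of all genes in that position was not counted.

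A LINC symbol is a catalogue number given to a long non-coding RNA that lies between protein-coding genes and has no established function at the time of naming. Such RNAs are made by RNA polymerase II, and are often spliced and polyadenylated like messenger RNAs. They are known for low copy numbers and for expression that is restricted to particular tissues and lineages. A few have been studied in tumours, as scaffolds or decoys for proteins, as competitors for microRNAs, or as host transcripts of smaller RNAs.

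IMR32 is an established human neuroblastoma line with amplified MYCN, and its cells resemble sympathetic neuroblasts. TPX2 is a microtubule-associated protein that helps to build the mitotic spindle and activates the kinase AURKA. In 3 groups of libraries TPX2 was knocked down with 1 siRNA each, called si45, si46 and si47, and the control group received a non-targeting siRNA, siNTC. Each group had 4 replicates of the same line, described in the series' design as biological replicates, and the column names of the table give 48 h for every library. All 3 knockdown groups were compared with the same 4 control libraries, so these comparisons are not independent of each other.

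The QuantSeq libraries were primed on the poly(A) tail of total RNA, so that a read marks a transcript's 3′ end and counts need no scaling by gene length. The deposited counts summed to between 5318159 and 7864343 per library, with a median of 5966582. A level is given below as CPM, a library's counts scaled to a common total by the TMM method. TPX2 stood at 327 ± 27.1 CPM (SD, n = 4) with siNTC and fell to 91.6 ± 19.8 with si45, 81.7 ± 14.3 with si46 and 71.5 ± 3.37 with si47, and all knockdown libraries were below all controls (two-sided exact permutation test, p = 0.0286 for each siRNA, the smallest that 4 against 4 allows). The labels give brain as the tissue and neuroblast as the cell type. All 10 adrenergic neuroblast markers were present, with a summed level of 5332 to 5710 CPM in siNTC, 5596 to 6086 in si45, 5793 to 6457 in si46 and 6045 to 6513 in si47. Every si46 and si47 library was thus above every control, and the part of this in the results below was not tested. The summed markers of astrocytes and oligodendrocytes did not pass 0.677 CPM, and MOG and OLIG2 were at 0 in every library. Summed fibroblast markers ranged from 36.4 to 64.5 CPM in siNTC and from 27.0 to 81.4 CPM in the knockdown libraries, and summed Schwann cell markers from 4.87 to 11.3 CPM over all libraries, with SOX10 at 0.

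Because reads were taken at the 3′ end, the annotated ends of the 8 members that changed on knockdown are shown first, as the last bases of the longest transcript model in GENCODE v29 (GRCh38). Each is written 5′ to 3′ on the transcript's strand, with the canonical cleavage and polyadenylation signal AATAAA or its common variant ATTAAA in capitals.
LINC01970, chr17:82290046-82290075, minus strand: gAATAAAcatgcatgtatattcgcaacgcc
LINC02334, chr13:38048140-38048169, plus strand: caggaaatcaaaaacaaacaaacaaaaaca
LINC01821, chr2:194419614-194419643, plus strand: AATAAAagagaaatgagcacagaagaatat
LINC02983, chr7:5426277-5426306, minus strand: ggtgaaaacATTAAAcatttataaaaataa
LINC00663, chr19:19773878-19773907, minus strand: tgATTAAAtcatttcatctaagctgttaaa
LINC00472, chr6:71414445-71414474, minus strand: ggtttgaATTAAAatgttttcctgtcagta
LINC00963, chr9:129512650-129512679, plus strand: ttAATAAAatattttattccatcttctcta
LINC01963, chr2:216220163-216220192, plus strand: tcAATAAAaccccacgtctcttttgctggc
The window for LINC01821 stops 2 bases before the model's end, and the others stop at it. For LINC00472, LINC00663 and LINC00963 the gene's annotation reaches beyond the end of the longest model, so the printed end is not the gene's last base. It reaches far beyond for LINC00472 and LINC00663. Where in a gene the counted reads fell was not examined. In 7 of these 8 genes the signal began 21 to 32 bases before the end. LINC02334 held neither hexamer in its last 50 bases, and 21 of the 30 bases printed were A. Searched on the transcript strand over the last 50 bases, one of the hexamers was found in 68 of the 104 members (65.4%), in 77.2% of the 11754 protein-coding genes tested and in 59.0% of 1282 other long non-coding genes tested.

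The members were a mixed group by annotation. GENCODE v29 classed 77 of the 104 as lincRNA, 10 as processed transcript and 8 as antisense, and 4 as transcribed unprocessed pseudogene. LINC02693 is listed there as protein-coding. The longest model of a member had a median of 3 exons, and in 24 members it had a single exon. Exon numbers given below are also those of the longest model. Not all lay between genes: 11 overlapped a protein-coding gene, 7 of them on the same strand, and 50 overlapped some annotated gene. Another 26 lay within 5 kb of a protein-coding gene without overlap, and 17 were more than 100 kb from one. The starts of 6 lay within 1 kb of a protein-coding start on the opposite strand, the arrangement of a shared promoter. Chromosome 2 held the most members, with 12. Whether the authors' counting used strand is not given in the sources used here, so reads of overlapping genes on opposite strands cannot be told apart.

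Most members were rare RNAs. Their median level in siNTC was 3.87 CPM, against 26.0 CPM for the protein-coding genes tested, and 60 of the 104 were under 5 CPM. All members together took 0.185% to 0.206% of a library's counts, and each library held a count for 103 or 104 of them. A single gene, LINC00682, took 21.5% to 29.1% of the member counts, and the 8 most abundant members took 50.9% to 56.7%. The spread between control replicates was wider than for coding genes, with a median SD of 0.288 of the mean against 0.137.

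**Figure D1:**
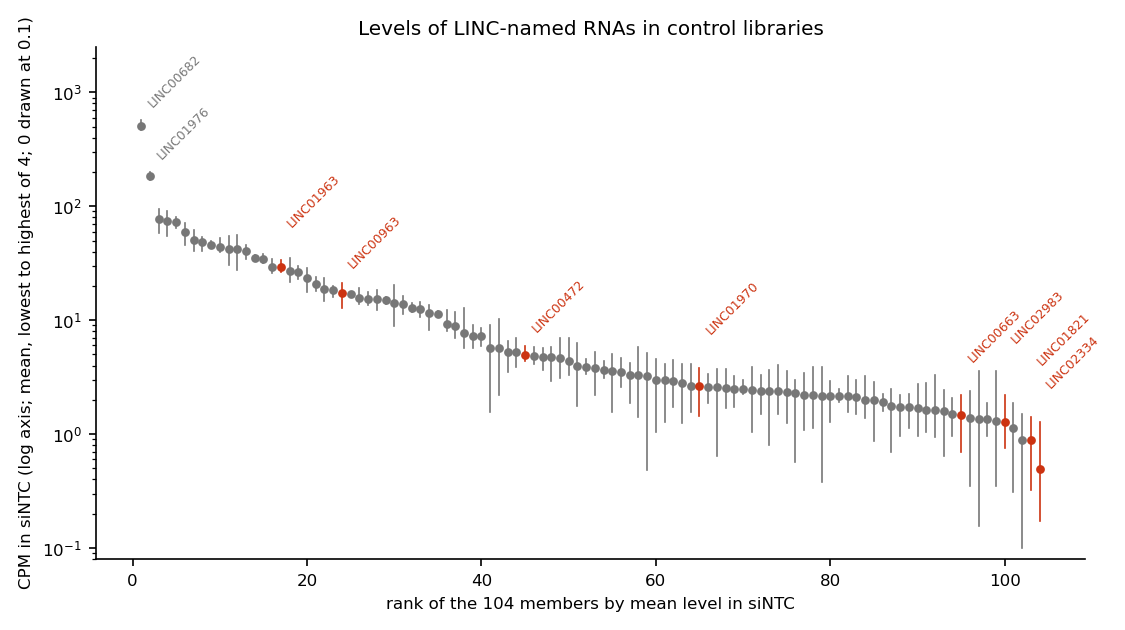
Level of each of the 104 members in the 4 control libraries, ranked by the mean, in CPM on a log axis. Points are means and lines run from the lowest to the highest library (1 library at 0 is drawn at 0.1). Members called in the mean of the 3 siRNAs against siNTC are red, and 5 of these 8 lie below the median member level of 3.87 CPM.

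LINC00682, on chromosome 4 (chr4:41872747-41882955, minus strand), was the highest of all. It measured 489, 573, 467 and 503 CPM in the siNTC libraries and 426 to 558 CPM in the 12 knockdown libraries. These ranges overlapped, and the log2 fold change over the 3 siRNAs was −0.05 ± 0.07 (SE; edgeR quasi-likelihood test, Benjamini-Hochberg adjusted p = 0.774). LINC01976, a short transcript 1845 bases from PPY (the pancreatic polypeptide gene), followed with 170 to 200 CPM in siNTC and 135 to 204 CPM on knockdown. Its neighbours in the order of levels were far below. LINC02078 stood at 77.0 ± 16.6 CPM (SD, n = 4) in siNTC, LINC00324 at 74.9 ± 15.0 and LINC00632 at 72.3 ± 6.48. Those 3 did not differ beyond their spread. LINC01828 stood at 58.9 ± 13.1 CPM, LINC02210 at 50.3 ± 10.8 and LINC00205 at 48.4 ± 5.76, again within each other's spread. LINC01828 belongs to a group of 4 members, with LINC01798, LINC01799 and LINC01829, that lie on chromosome 2 between MEIS1, a homeobox gene, and ETAA1. LINC01828 and LINC01829 overlap on opposite strands. LINC02210 overlaps, on its own strand, a read-through gene that continues into CRHR1, and that gene had a mean raw count of 0.312. LINC00205 lies 152 bases from POFUT2, on the opposite strand. Of these 8 abundant members, LINC00632 alone passed the edgeR test in a comparison with siNTC, with si47, and other settings also called it in the mean of the siRNAs.

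On TPX2 knockdown a few LINC RNAs of low level rose by the most. In the mean of the 3 siRNAs against siNTC, 8 of the 104 members passed an adjusted p of 0.05, 7 higher and 1 lower. The test was edgeR's quasi-likelihood test fitted on all 14193 genes that passed a low-count filter, with Benjamini-Hochberg adjustment over all of them, and all 104 members passed that filter. Of all genes tested, 7.14% were called in this comparison, 3.61% as higher and 3.53% as lower, so the share of members called in either direction, 7.69%, was near the background. The members split 7 to 1 towards higher levels, where all genes split 513 to 501. That comparison is not matched for abundance, and the threshold for members favours genes that were higher on knockdown. LINC02334, LINC01821, LINC02983 and LINC00663, all counted as higher, reached it only through the knockdown libraries. Without siNTC replicate 1, or without siNTC replicate 4, the count of called members was 2, LINC01970 and LINC02334, and without si47 replicate 2 it was 5. The share of all genes called in those fits was not counted. A change in transcripts per cell and a change in the part of the cells that carry a transcript cannot be told apart in bulk libraries. The members' median log2 fold change was 0.10, beside −0.0011 for all genes tested, and 58 of the 104 were positive, beside 49.8% of all genes. The median rests on the scarce members: it was 0.0019 for the 58 members with a mean raw count of at least 20. Standard errors were wide, with a median of 0.32 on the log2 scale for members and 0.15 for all genes.

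**Figure D2:**
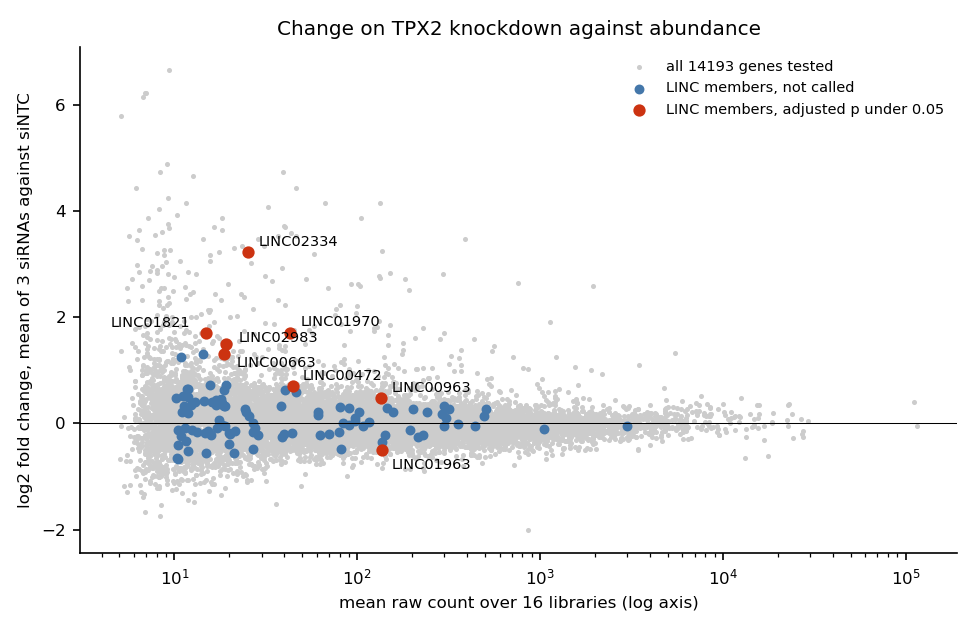
Log2 fold change of every gene tested, mean of the 3 siRNAs against siNTC, against its mean raw count over 16 libraries on a log axis. Grey dots are all 14193 genes, blue dots the members that were not called and red dots the 8 called members, from LINC02334 at 3.23 to LINC01963 at −0.50.

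The calls were spread over the abundance range below a mean raw count of 300. Of the 59 members with a mean raw count from 10 to under 30, 4 were called (6.78%), beside 3.69% of all genes in that range. Of the 20 with 30 to under 100, 2 were called (10%), beside 4.36%, and of the 17 with 100 to under 300, 2 were called (11.8%), beside 7.63%. The called members were higher in 4, 2 and 1 cases in these ranges. Calls of all genes also leaned higher at low counts, with 71 of 91 higher at 10 to under 30 and 93 of 139 at 30 to under 100. From 100 to under 300, 142 of 284 were higher, and at 300 or more 159 of 449. None of the 8 members with at least 300 was called by edgeR as described above, beside 11.3% of all genes that abundant. At an unadjusted p under 0.05 there were 2 of them, LINC00632 and LINC00662, beside 20.4% of all genes tested at any abundance. LINC00632 was called by DESeq2 (adjusted p = 0.0461) and by edgeR without the low-count filter (0.0419).

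LINC01970 and LINC02334 were the clearest cases, and in both every knockdown library was above every control library. That pattern held for 1.49% of all genes tested. LINC01970 (ENSG00000265692, chr17:82290046-82292814, minus strand) is a lincRNA of 2 exons that overlaps no annotated gene. It measured 1.44, 2.19, 3.03 and 3.82 CPM in siNTC. With si45 it measured 9.32, 5.81, 8.67 and 4.92 CPM, with si46 7.60, 12.2, 4.88 and 7.64, and with si47 9.90, 14.3, 5.54 and 13.4. The lowest knockdown value, 4.88 CPM, was above the highest control. The log2 fold change over the 3 siRNAs was 1.71 ± 0.30 (SE; edgeR adjusted p = 0.00028). In this fit it was the single member called under each siRNA, at 1.46 ± 0.35 for si45 (edgeR adjusted p = 0.020), 1.62 ± 0.35 for si46 (0.0046) and 2.04 ± 0.34 for si47 (0.00010). The si45 call was lost in 3 of 16 fits that each left out 1 library, without si45 replicate 1 and without siNTC replicates 1 and 2, where the adjusted p reached 0.112 at most, and by limma-voom (0.119).

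LINC02334 (ENSG00000274317, chr13:37934565-38048169, plus strand) had the largest fold change of all members and the lowest control level, 0.490 ± 0.532 CPM (SD, n = 4). It is a lincRNA of 5 exons whose nearest protein-coding gene, TRPC4, encodes a cation channel and was not tested. The siNTC libraries held 8, 2, 1 and 1 reads, or 1.28, 0.313, 0.189 and 0.173 CPM. With si45 it measured 3.88, 3.52, 1.56 and 2.46 CPM, with si46 4.43, 8.55, 1.52 and 3.35, and with si47 10.1, 17.6, 4.87 and 4.23. No knockdown library overlapped the controls, but the si47 libraries alone spanned 4.23 to 17.6 CPM. The summed counts, 394 on knockdown and 12 in siNTC, gave a ratio of 10.7 with a 95% interval of 6.07 to 20.9 that covers counting error only. The fitted log2 fold change was 3.23 ± 0.59 (edgeR adjusted p = 0.00087). By siRNA it was 2.47 ± 0.68 for si45 (adjusted p = 0.071, not called), 3.09 ± 0.65 for si46 (0.0068) and 4.13 ± 0.63 for si47 (8.7e-05). Other settings called it with si45: DESeq2 (0.0080), no low-count filter (0.00022) and 5 of 16 fits without 1 library (0.0224 to 0.0360), namely si45 replicate 3, si46 replicate 2 or 3, si47 replicate 2 or siNTC replicate 1. By limma-voom the si46 call was lost (0.0614). Without siNTC replicate 1, the highest control, the estimate over the 3 siRNAs was 4.30.

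**Figure D3:**
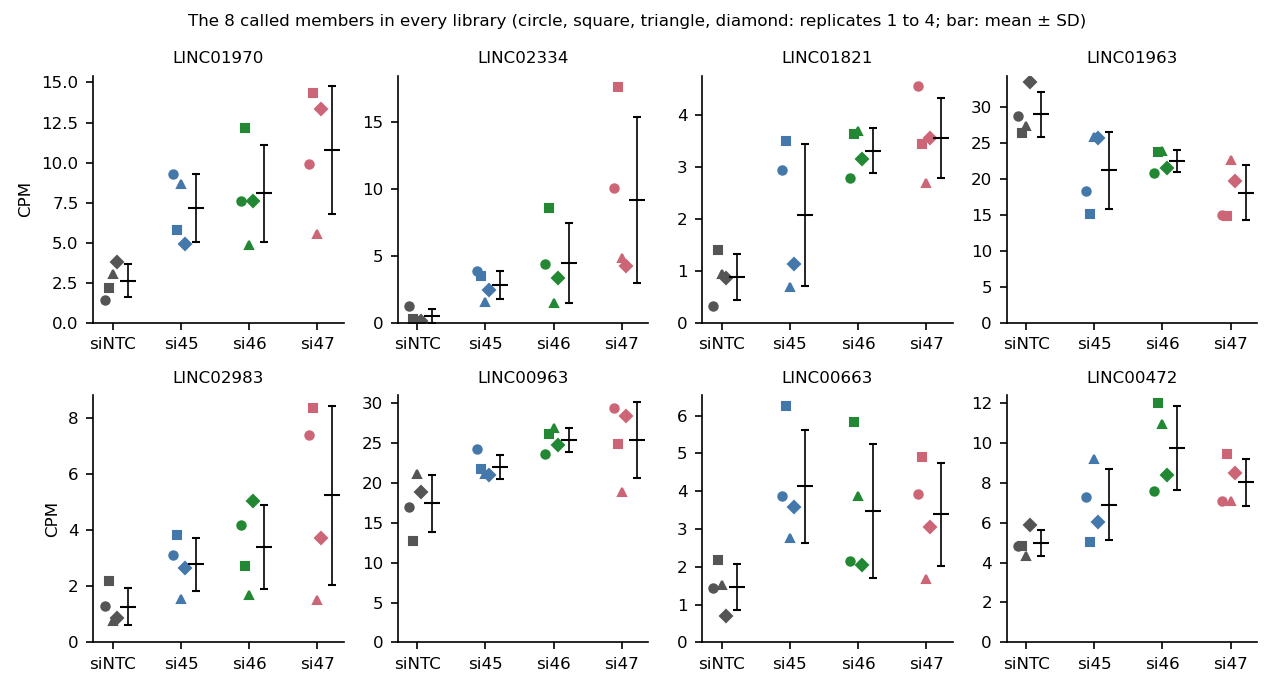
CPM in every library for the 8 members called in the mean of the 3 siRNAs against siNTC, 1 panel each with its own axis from 0. Symbols mark replicates 1 to 4 and bars the group mean ± SD (n = 4). LINC01970 and LINC02334 lie above all controls in all 12 knockdown libraries and LINC01963 below, while the other 5 overlap.

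LINC01821, LINC02983 and LINC00663 were at about 1 CPM in the controls and rose on the mean of the siRNAs, with some overlap. LINC01821 (ENSG00000225539, chr2:194344269-194419645, plus strand), a lincRNA of 6 exons, lies 1156332 bases from the nearest protein-coding gene, SLC39A10, a zinc importer. It measured 0.321, 1.41, 0.946 and 0.867 CPM in siNTC, then 2.95, 3.52, 0.694 and 1.13 with si45, 2.79, 3.64, 3.70 and 3.17 with si46, and 4.56, 3.45, 2.69 and 3.56 with si47. All si46 and si47 libraries were above all controls, and 2 si45 libraries were not. It rose by 1.70 ± 0.45 on the log2 scale (edgeR adjusted p = 0.0150), and the call was lost without siNTC replicate 1 (0.0863) or 4 (0.0521).

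LINC02983 (ENSG00000234432, chr7:5426277-5428927, minus strand) is a single-exon gene 863 bases from TNRC18, on the same strand. It measured 1.28, 2.19, 0.756 and 0.867 CPM in siNTC. The knockdown values were 3.11, 3.82, 1.56 and 2.65 CPM with si45, 4.18, 2.73, 1.68 and 5.03 with si46, and 7.39, 8.35, 1.51 and 3.73 with si47. Replicate 3 was the lowest under each siRNA and in each case fell inside the control range. LINC02983 rose by 1.5 ± 0.43 on the log2 scale (edgeR adjusted p = 0.0279). AC092171.5, a lincRNA that overlaps it on the opposite strand, was also called, at 2.04 ± 0.54 (adjusted p = 0.0152), and the reads of these overlapping genes cannot be told apart. The LINC02983 call was lost without si47 replicate 2 or without siNTC replicate 1, 3 or 4 (adjusted p from 0.0507 to 0.111), and by limma-voom (0.134).

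LINC00663 (ENSG00000266904, chr19:19757366-19776423, minus strand) lies 9416 bases from ZNF506, a zinc-finger gene on chromosome 19. It measured 1.44, 2.19, 1.51 and 0.694 CPM in siNTC, then 3.88, 6.27, 2.77 and 3.59 with si45, 2.15, 5.82, 3.87 and 2.05 with si46, and 3.93, 4.90, 1.68 and 3.05 with si47. The highest control overlapped 2 si46 libraries and 1 si47 library. On the log2 scale it rose by 1.30 ± 0.40 (edgeR adjusted p = 0.0378), while none of the siRNAs alone reached the threshold. Without si47 replicate 3, si47 did (0.0443), and with the replicate number as a block in edgeR si45 (0.0305) and si47 (0.0464) did. In the mean of the siRNAs it lost the call by limma-voom (0.0996) and kept the call in 9 of 16 fits that each left out 1 library, and the adjusted p reached 0.161 without siNTC replicate 4, with similar losses without siNTC replicates 1 and 3, si45 replicate 2, si46 replicate 2, and si47 replicates 1 and 2.

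LINC00472 and LINC00963 changed less and were more abundant. LINC00472 (ENSG00000233237, chr6:71344344-71420769, minus strand) has been studied as a growth-restraining RNA in breast tumours. It measured 4.81, 4.85, 4.35 and 5.90 CPM in siNTC, then 7.30, 5.05, 9.19 and 6.05 with si45, 7.60, 12, 10.9 and 8.38 with si46, and 7.07, 9.43, 7.06 and 8.47 with si47. All but 1 knockdown library, si45 replicate 2, were above all controls. The log2 fold change was 0.70 ± 0.22 (edgeR adjusted p = 0.0434), with 0.96 ± 0.26 for si46 (0.0282). The call in the mean of the siRNAs was near the threshold. It was lost by limma-voom (0.0800) and without the low-count filter (0.0718), and it held in 6 of 16 fits that each left out 1 library. Leaving out any siNTC library ended it (adjusted p from 0.0623 to 0.130), as did leaving out si45 replicate 1 or 3, si46 replicate 2 or 3, or si47 replicate 2 or 4 (0.0558 to 0.0687).

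Introns of LINC00472 hold the genes of the microRNAs MIR30A and MIR30C2, whose major products belong to the miR-30 family. Their mature 5p sequences from RefSeq (GRCh38.p14) are shown because they share a seed, bases 2 to 8, in capitals.
hsa-miR-30a-5p: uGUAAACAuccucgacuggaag
hsa-miR-30c-5p: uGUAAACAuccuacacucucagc
A 3′ end library of polyadenylated RNA does not capture mature microRNAs, and both genes had 0 counts in every library, so the level of these microRNAs was not measured. Among the other members, LINC00888 also held small RNA genes, 4 small nucleolar RNAs with mean raw counts of 0.312 or less.

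LINC00963 (ENSG00000204054, chr9:129483451-129513686, plus strand), which has been studied in prostate cancer, measured 17.0, 12.7, 21.2 and 18.9 CPM in siNTC. With si45 it measured 24.2, 21.7, 21.2 and 21.0 CPM, with si46 23.7, 26.2, 26.9 and 24.8, and with si47 29.4, 24.9, 18.8 and 28.4. All 4 si46 libraries were above the controls, and siNTC replicate 3 overlapped 3 other knockdown libraries. LINC00963 had a log2 fold change of 0.48 ± 0.14 (edgeR adjusted p = 0.0280). The call was lost without siNTC replicate 1 (0.0883), 2 (0.171) or 4 (0.0547).

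LINC01963 was the one member called as lower. This single-exon lincRNA (ENSG00000260804, chr2:216217045-216220192, plus strand) lies 10742 bases from XRCC5, which encodes the Ku80 subunit of the DNA end-joining complex. It measured 28.9, 26.4, 27.4 and 33.5 CPM in siNTC, then 18.3, 15.1, 25.8 and 25.7 with si45, 20.9, 23.8, 23.9 and 21.6 with si46, and 15.1, 14.9, 22.7 and 19.8 with si47. Every knockdown library was below every control, a pattern seen in 1.03% of all genes tested. Its log2 fold change was −0.50 ± 0.14 (edgeR adjusted p = 0.0184), and the call was lost without siNTC replicate 1 (0.0554) or 4 (0.116). XRCC5 itself gave −0.07 ± 0.06 (adjusted p = 0.524).

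Each siRNA was then read separately. With si45, 1 member was called (1.34% of all genes tested), LINC01970. With si46, 4 members were called (3.4% of all genes tested), all higher (2.14%): LINC01970, LINC02334, LINC01821 and LINC00472. With si47, 9 members were called (9.74% of all genes tested), 8 of them higher (4.91%) and 1 lower (4.83%). These were LINC01970, LINC02334, LINC01821, LINC02983, LINC00963, LINC00467, LINC00632 and LINC00665, with LINC01963 lower. The si47 call of LINC00963 was lost without si47 replicate 1, 2 or 4 or siNTC replicate 1 or 2 (adjusted p from 0.0534 to 0.131) and with only the groups compared in the fit (0.0556), and that of LINC02983 by limma-voom (0.0592). With si46, LINC01821 lost its call without si46 replicate 2, 3 or 4 or siNTC replicate 1, 3 or 4 (0.0558 to 0.123), and LINC00472 without si46 replicate 2 or 3 or siNTC replicate 1, 2 or 3 (0.0671 to 0.123). The members' share of calls followed the share of all genes under each siRNA, at 0.962%, 3.85% and 8.65%. Their median log2 fold changes were 0.08 with si45, 0.13 with si46 and 0.12 with si47, beside 0.00097, 0.0024 and 0.0043 for all genes tested. By limma-voom none was called with si45 and 1 with si46. Leaving out 1 library gave no called member with si45 without si45 replicate 1 or siNTC replicate 2, and 2 without si45 replicate 3, si46 replicate 2 or 3, or si47 replicate 2. With si46 the count was 2 without si46 replicate 2, si46 replicate 3 or siNTC replicate 1. The share of all genes called by limma-voom or in the fits without 1 library was not counted.

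**Figure D4:**
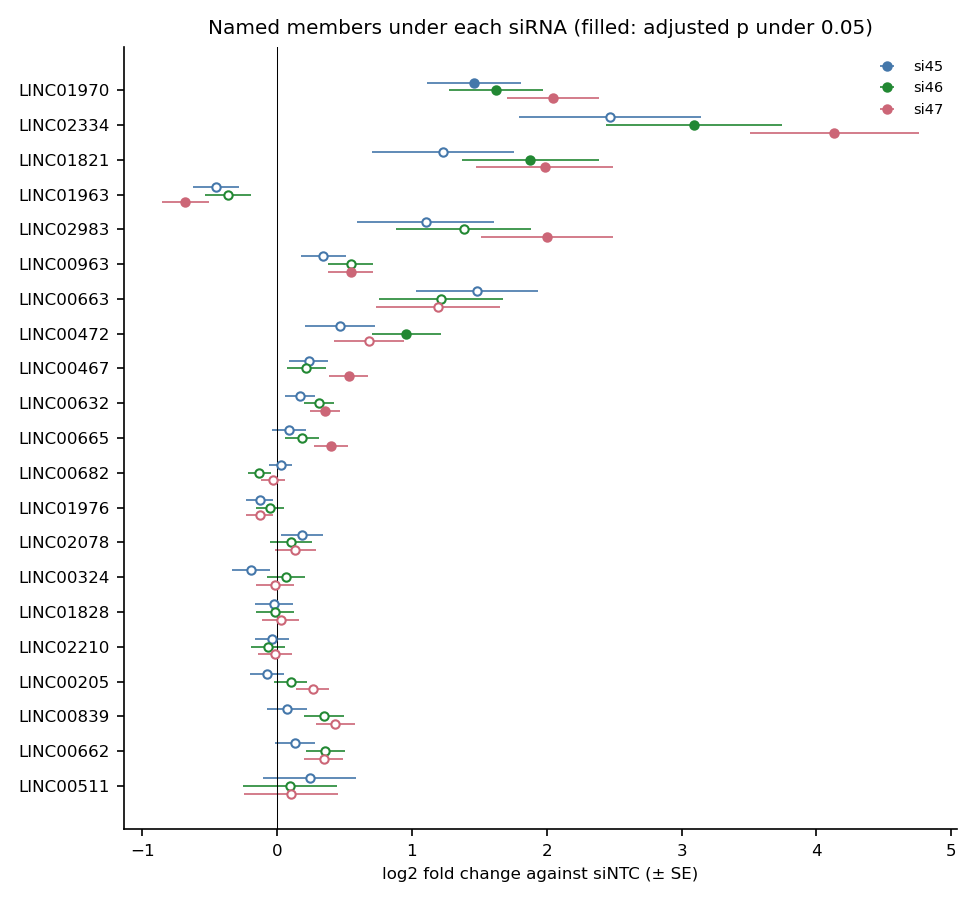
Log2 fold change against siNTC (± SE) of 21 members under si45 (blue), si46 (green) and si47 (red). The top 8 are the called members, the next 3 were called with si47 alone, and the rest are abundant members or members named for what is known of them. Filled symbols passed an edgeR adjusted p of 0.05, and the 3 groups share their 4 control libraries.

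Among the members called with si47 and not in the mean of the siRNAs, LINC00467 has been described as repressed by N-Myc in neuroblastoma cells. It measured 37.4, 27.8, 56.2 and 46.5 CPM in siNTC and 54.5, 58.8, 63.5 and 65.2 with si47, with 1 si47 library inside the control range. The log2 fold change with si47 was 0.53 ± 0.14 (edgeR adjusted p = 0.0142), and the call was lost without siNTC replicate 1 (0.0583) or 2 (0.0832). LINC00632, on the X chromosome, is the host transcript of the circular RNA CDR1as, a binder of miR-7. It measured 64.5, 80.2, 71.3 and 73.0 CPM in siNTC and 106, 92.5, 95.4 and 76.0 with si47, where only the last fell within the control range. The log2 fold change with si47 was 0.36 ± 0.11 (edgeR adjusted p = 0.0323), and 0.28 ± 0.09 in the mean of the siRNAs (adjusted p = 0.0545). The counts do not separate linear from circular RNA. LINC00632 lost its si47 call without si47 replicate 1, 2 or 3, or siNTC replicate 1, 3 or 4 (adjusted p from 0.0569 to 0.146).

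LINC00665 measured 37.5, 33.5, 33.1 and 37.6 CPM in siNTC and 56.1, 40.8, 46.9 and 43.0 with si47, with no overlap. The log2 fold change was 0.40 ± 0.13 (edgeR adjusted p = 0.0382). This call was lost without si47 replicate 1 or 3 or without any of the siNTC libraries (adjusted p from 0.0539 to 0.186). LINC00839, LINC00662 and LINC00511 were read because they have been studied in tumours. LINC00839 stood at 20.7 ± 2.56 CPM (SD, n = 4) in siNTC and 27.9 ± 2.62 with si47 (log2 fold change 0.43 ± 0.15, edgeR adjusted p = 0.0552). LINC00662 stood at 45.5 ± 3.06 CPM in siNTC and 58.0 ± 14.5 with si47 (0.34 ± 0.14, adjusted p = 0.136). LINC00511, at 3.90 ± 0.512 CPM in siNTC and 4.21 ± 1.90 with si47, gave 0.11 ± 0.35 (adjusted p = 0.902). None of these 3 passed the edgeR test under any siRNA in the main fit, which has no block. LINC00839 passed with si47 by DESeq2 (adjusted p = 0.0350), among genes with at least 10 counts in every library (0.0468) and without siNTC replicate 4 (0.0411). LINC00662 passed with si47 without si47 replicate 3 (0.0342). With the replicate number as a block in edgeR, LINC00839 passed with si47 (adjusted p = 0.0288), and LINC00662 with si46 (0.0417) and si47 (0.0342). LINC00461 had no counts, LINC01551 had a mean raw count of 0.312, and neither was a member. LINC00599 has the newer symbol MIR124-1HG and a mean raw count of 239, so the rule on symbols left it out. LINC01158 had no row under that symbol.

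Between the siRNAs no member passed the test by edgeR, DESeq2 or limma-voom. The comparison of si45 with si46 called 0.0282% of all genes tested, si45 with si47 0.169% and si46 with si47 0.0493%. At an unadjusted p under 0.05 edgeR gave 2, 8 and 6 members, beside 4.1%, 10.4% and 7.29% of all genes. LINC02334 had the lowest adjusted p among members in the si45 and si47 comparison, with 2.85 ± 1.05 CPM (SD, n = 4) under si45 and 9.19 ± 6.18 under si47. The log2 difference, si45 minus si47, was −1.66 ± 0.50 (SE; edgeR adjusted p = 0.165). With the replicate number as a block it passed (adjusted p = 0.0058). Same-numbered si45 and si47 libraries, like those of several other pairs of groups, deviated together from their group means.

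The members' nearest protein-coding genes were examined next, since some long non-coding RNAs act on or share regulation with adjacent genes. Of the 104 members, 85 had a nearest protein-coding gene that was tested, 80 genes in all. None of the 7 called members with such a neighbour had a neighbour called by edgeR, where 7.14% of all genes tested were called. CSNK1D, a casein kinase 16315 bases from LINC01970, stood at 83.3 ± 3.68 CPM (SD, n = 4) in siNTC and 89.6 ± 5.32 with si47 (log2 fold change over the 3 siRNAs 0.10 ± 0.08, edgeR adjusted p = 0.512). TNRC18, next to LINC02983, gave 0.15 ± 0.22 (adjusted p = 0.756), and ZNF506, next to LINC00663, 0.10 ± 0.20 (0.833). SLC39A10 gave −0.10 ± 0.07 (0.456), NTMT1, nearest to LINC00963, 0.03 ± 0.10 (0.912) and OGFRL1, nearest to LINC00472, −0.02 ± 0.28 (0.979).

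Across the 85 pairs, member and neighbour had the same sign in 38, with Pearson's r of −0.0047 and Spearman's rho of −0.022 between their log2 fold changes. This is a description across genes of the same libraries, and genes are not independent replicates. Of the 80 neighbours, 5 were called (6.25%), near the 7.14% of all genes tested, each beside a member that was not. IER5L, an immediate early response gene nearest to LINC01503, rose from 13.8 ± 2.15 CPM in siNTC to 26.0 ± 2.45 with si47, and its log2 fold change over the 3 siRNAs was 0.72 ± 0.18 (edgeR adjusted p = 0.0101). CSTF3, a subunit of the cleavage stimulation factor that overlaps LINC00294 on the opposite strand, gave 0.28 ± 0.08 (0.0311). SLC25A1, the mitochondrial citrate carrier near LINC01311, gave −0.41 ± 0.10 (0.0115). LSAMP, a neuronal adhesion molecule, gave −0.33 ± 0.11 (0.0492), and HNRNPR, an RNA-binding protein, −0.22 ± 0.07 (0.0487).

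**Figure D5:**
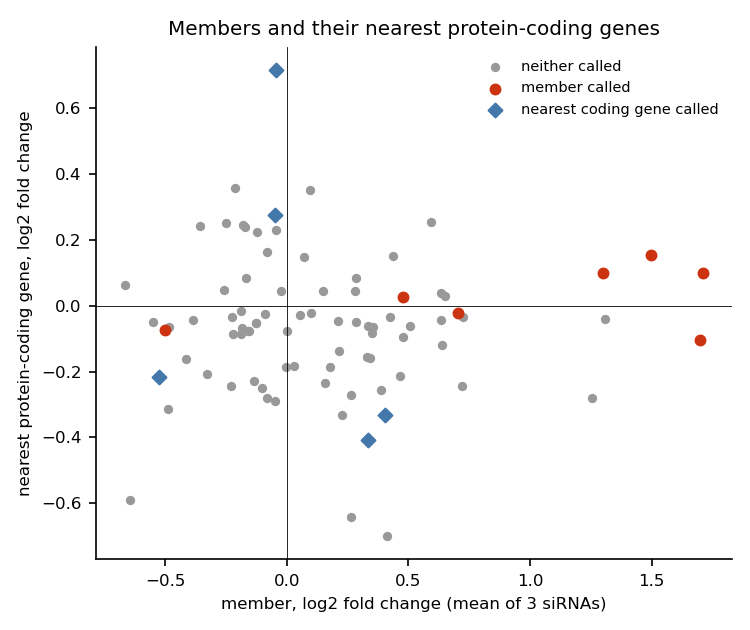
Log2 fold change of 85 members (horizontal axis) and of their nearest protein-coding gene (vertical axis), mean of the 3 siRNAs against siNTC. Red points are called members, blue diamonds are called neighbours and grey points are pairs with neither called. No pair had both called, and 38 of the 85 pairs shared a sign.

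Promoter windows from RefSeq (GRCh38.p14, 250 bases before to 50 after a gene's start) were available for 72 members, in 85 windows. They were searched on both strands for the p53 response element, written as a pair of decamers with an intact core and up to 10 bases between them, because the lncRNAs known as p53 targets are among the genes that rose most in these libraries. With up to 3 mismatches outside the core, a limit chosen after the values were seen, 6 of 85 member windows held a match (7.06%), beside 3.66% of 35116 windows of all genes. With up to 2 mismatches, 2 member windows matched (2.35%), beside 1.14%. With up to 1 mismatch no member window matched, beside 0.211% of all windows, and with 0 mismatches none did, beside 0.0256%. How many of the called members had a window was not counted. Of the called members only LINC01970 had a match, 29 bases before its start, with 3 mismatches and 5 bases between the decamers. It is printed on the minus strand, with the core bases in capitals.
LINC01970, chr17:82292819-82292843: cagCTAGgccaattagagCTAGgcc
The other matches were in LINC00667, LINC00839, LINC01224, LINC01560 and LINC01623, none of which was called. A match describes letters in the window and is not evidence of binding.

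Other classes of long non-coding RNA, counted in the same fit, also had more higher than lower calls in the mean of the 3 siRNAs. Of 287 antisense lncRNAs tested, 16 were higher and 3 lower, led by LIF-AS2 at 3.86 ± 0.59 (log2, SE) and GAS6-AS1 at 3.47 ± 0.59. Of 160 divergent transcripts (symbols ending in -DT), 9 were higher and none lower by edgeR, with a median log2 fold change of 0.27. BTG1-DT, at 2.32 ± 0.35, and DNAJC3-DT, at 1.04 ± 0.22, led them. Of 47 small RNA host genes, 7 were higher and 2 lower, led by MIR34AHG at 3.63 ± 0.57 and SNHG25 at 0.36 ± 0.07. Among 21 named lncRNAs tested, 4 were higher and 0 lower, led by GAS5 at 0.51 ± 0.10 and EPB41L4A-AS1 at 0.44 ± 0.11. Of 9 p53-linked lncRNAs tested, 4 were higher, led by PINCR at 4.73 ± 0.47 and PURPL at 3.87 ± 0.27 (edgeR adjusted p = 1.2e-08 and 5.8e-12), both known p53 targets. Protein-coding genes gave 372 higher and 478 lower of 11754 tested. Of all genes tested, 7.14% were called, 3.61% higher and 3.53% lower. In either direction 6.62% of the antisense lncRNAs, 5.625% of the divergent transcripts and 19.1% of the small RNA host genes were called. Calls of all genes also leaned higher at low counts, with 71 of 91 higher at a mean raw count of 10 to under 30. These classes were not matched for abundance, and the difference between them was not tested.

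The summed share of counts on the members moved little. The controls had 0.194% ± 0.00625 (SD, n = 4), the si45 libraries 0.196% ± 0.00624, the si46 libraries 0.198% ± 0.00421 and the si47 libraries 0.200% ± 0.00724, and the ranges of all 4 groups overlapped.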

How the data were processed

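The authors deposited 1 table of raw read counts per Ensembl gene (58787 genes, 16 libraries), not normalized. Per the labels, total RNA was treated with DNase, and 15 PCR cycles were used for the 3′ libraries. The submitters' processing notes name STAR 2.7.2b, FastQC 0.11.7, edgeR 3.36.0, limma 3.50.3 and GRCh38. The counter, annotation release, strand setting and treatment of PCR duplicates are not given in the sources used here, and duplicates can widen the spread of scarce RNAs.

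Symbols came from a gene name table that matched 58434 identifiers, positions from GENCODE v29. Of the members, 25 have another symbol there. Counts were fitted with edgeR 4.0.16 (R 4.3.3): filterByExpr with a minimum count of 10 and minimum total of 15, TMM scaling, and robust quasi-likelihood dispersions, with 1 mean per group and all 16 libraries in the fit. p-values were adjusted by Benjamini-Hochberg over all 14193 genes, with a threshold of 0.05. An SE is the log2 fold change divided by the square root of F. TPX2 was tested on the log2(CPM + 1) scale. The fit was checked on simulated counts that gave every gene the same dispersion and did not pair replicates. Recovery of scarce genes was not counted apart, so the check does not bear on calls of scarce members.

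The 24 pairs of replicates within groups differed by 4.58 to 10.6 chi-square per degree of freedom, so none agreed within sampling noise. Deviations of same-numbered libraries from their group means correlated at 0.120 to 0.242 for si45 and si47. The range was 0.0716 to 0.247 for si45 and si46, 0.0854 to 0.209 for si46 and si47, and 0.0752 to 0.184 for siNTC and si45. In all 4 pairs of each of these, the correlation was above those with other numbers. For siNTC with si46 (0.0387 to 0.112) and with si47 (0.0188 to 0.114) some pairs were not. That pairing comes from the values and not from the labels, and the main fit has no block for it.

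The members, lists and tests were chosen with earlier results of these data known. The genes to name were TPX2, all members called in the mean of the siRNAs and their nearest coding genes, those called under 1 siRNA alone, the 8 most abundant in siNTC, 10 with a known context, the 4 nearest the threshold on each side, and up to 2 called genes per other list. Called neighbours, AC092171.5 and the members with a motif match were added after their values were seen. Alternatives were DESeq2 1.42.0, limma-voom 3.58.1, upper-quartile and RLE scaling, other filters and thresholds, only the groups compared, the replicate block and each library left out. Intervals cover counting error only.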

Additional observations from a re-analysis of the deposited data

Results flagged for a closer look

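In 96 groups of 4 libraries, formed by the levels of TPX2 and of 21 named members, the total count and the members' share of counts under each siRNA or siNTC, 5 had 1 library that stood apart by Dixon's 95% criterion, and chance gives about 1 in 20 groups, or 4.8. LINC02334 measured 1.28 CPM in siNTC replicate 1 and 0.173 to 0.313 CPM in the other controls. LINC00324 measured 76.0 CPM in si45 replicate 4 and 60.5 to 63.0 CPM in the others of its group. LINC00511 measured 6.57 CPM in si45 replicate 2 against 3.81 to 4.04 CPM. LINC01976 measured 204 CPM in si47 replicate 3 against 153 to 160 CPM. TPX2 itself measured 121 CPM in si45 replicate 3 against 79.4 to 85.1 CPM in the other si45 libraries, and 2 members were called with si45 when that library was left out.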

How the results depend on the processing

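No value changed direction past the threshold. LINC01970 and LINC02334 kept their call in the mean of the 3 siRNAs in all 16 fits without 1 library and in all 6 alternatives that tested them. Counts of called members moved. For si45 (1), they were 2 by DESeq2, 0 by limma-voom, 2 without the low-count filter, 0 with at least 10 counts in every library and 0 at an adjusted p under 0.01. For si46 (4), they were 1 by limma-voom, 1 with at least 10 counts in every library and 2 at 0.01. For si47 (9), 5 were called at 0.01. For the mean of the siRNAs (8), they were 5 by limma-voom, 3 with at least 10 counts in every library, 2 at 0.01 and 5 of the 58 members with a mean count of at least 20. With the replicate block, counts were 3, 8, 15 and 12 for si45, si46, si47 and the mean, and 1 for si45 with si47 (4.07%, 7.56%, 15.5%, 12.8% and 2.8% of all genes), also 1 there without the filter. The block added LINC00663 and LINC02334 with si45, LINC00632, LINC00662, LINC00963 and LINC02983 with si46, LINC00342, LINC00662, LINC00663, LINC00839, LINC01224 and LINC01623 with si47, and LINC00342, LINC00467, LINC00632 and LINC00662 in the mean, and ended no call. Without 1 library, and with no block, the counts ran from 0 to 2 (si45), 2 to 5 (si46), 6 to 10 (si47) and 2 to 9 (mean), and were 0 to 0 between siRNAs. The mean gave 2 without siNTC replicate 1 or 4 and 5 without si47 replicate 2, and si46 gave 2 without si46 replicate 2 or 3 or siNTC replicate 1. Apart from the block, the share of all genes called under these alternatives was not counted. Whether the moves are particular to the members therefore cannot be said, and their causes were not tested.

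Median log2 fold changes of members with at least 10 counts in every library were 0.0544 (si45), 0.0797 (si47), 0.0226 (mean) and −0.0491 (si45 minus si46). At a mean count of at least 20 they were 0.0458, 0.0846, 0.00187 and −0.0583, with −0.119 for si45 minus si47. At 5 or more they were 0.134 (si45) and 0.142 (mean). With GENCODE symbols (94 members) they were 0.140 (mean), −0.125 (si45 minus si46) and −0.143 (si45 minus si47). Without 1 library the medians of the members as first chosen ran from 0.0699 to 0.123 (si45), 0.0845 to 0.183 (si46), 0.0820 to 0.161 (si47) and 0.0681 to 0.152 (mean). Between siRNAs those medians ran from −0.126 to −0.0506 (si45 minus si46), −0.139 to −0.0210 (si45 minus si47) and −0.0506 to 0.00684 (si46 minus si47). Shares over all LINC symbols were 0.205%, 0.210%, 0.212% and 0.215% in siNTC, si45, si46 and si47, and without LINC00682 0.143%, 0.144%, 0.152% and 0.151%. Without 1 library the shares on the members themselves, in the same order of groups, ran from 0.191% to 0.196%, 0.195% to 0.199%, 0.197% to 0.200% and 0.199% to 0.204%. TPX2 differences ran from −1.98 to −1.78, −2.08 to −1.88 and −2.22 to −2.13 (log2), where 3 against 4 libraries cannot pass the threshold.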
